A study of Mus musculus with 20 samples.

Results

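RNA levels of 52 genes of transmitter release were followed in mixed cultures of mouse cerebellar granule neurons, and release itself was not measured. The 52 genes encode synaptic vesicle proteins, the SNARE proteins that fuse vesicles with the membrane, their calcium sensors, and the priming and active zone proteins. The genes were taken by name from a table of 24411 genes, all 52 were in it, and all 52 were among the 15284 genes that passed the filter on low counts. They were 14 calcium sensors and related C2-domain proteins, 4 SNARE proteins, 5 factors that clamp or recycle SNARE complexes, 5 priming factors, 9 active zone scaffolds, 13 vesicle proteins and 2 proteins of vesicle retrieval.

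In release, a SNARE protein on the vesicle zips together with SNARE proteins on the plasma membrane, complexins hold the assembled complex, and synaptotagmins trigger fusion when calcium enters. Scaffolds of the active zone keep vesicles beside calcium channels, and NSF with its SNAP adaptors takes used SNARE complexes apart. Granule neurons are a glutamatergic input to Purkinje cells, and mature granule neurons load vesicles mainly through the transporter Slc17a7 (VGLUT1). Kdm6b is an enzyme that removes a repressive methyl mark from histone H3.

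RNA was sequenced from 20 libraries in 4 groups of 5, numbered 1 to 5 in each group. Active rescue cultures received an shRNA against mouse Kdm6b together with the active enzymatic domain of human KDM6B, and dead rescue cultures the same shRNA with a dead form of the domain. Cultures labelled shKdm6b received the shRNA, and the other groups are set against control cultures. Not given in the sources used here are what the control cultures were infected with and the strain and age of the mice. Infection was on day 1 in vitro, AraC, which kills dividing cells, was added on day 2, and cells were harvested on day 7. The question was whether the enzymatic domain restores synaptic gene expression after the knockdown. Library totals were 14200745 to 21179300 estimated reads, and levels are given as CPM, counts scaled to the library size.

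Same-numbered libraries of the 4 groups resembled each other, so changes are given from a paired fit of edgeR's quasi-likelihood test, in which the number is a term, as log2 fold changes ± SE. A gene passed at a Benjamini-Hochberg adjusted p under 0.05 over all genes tested. No label states that libraries of a group came from separate cultures or animals. The paired p-values therefore measure only the spread between these libraries that is left once the number is taken into account. The cultures were mixed, and in such bulk RNA fewer cells of a type and less RNA per cell cannot be told apart.

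Libraries numbered 4 stood apart in all 4 groups. Their summed level of the 52 release genes was 4393 to 6444 CPM, against 8509 to 15631 CPM in all libraries of other numbers. Library 4 held the lowest level of its group for 41 of the 52 genes in active rescue, 35 in dead rescue, 42 in shKdm6b and 35 in control. The 12 granule neuron markers summed to 1998 to 3170 CPM in libraries numbered 4 and to 4391 to 7299 CPM elsewhere. The 12 markers of astrocytes and Bergmann glia summed to 12098 to 15717 CPM in libraries numbered 4 and to 2367 to 7359 CPM elsewhere. Libraries numbered 1 to 3 differed from those numbered 4 and 5 in the ribosomal RNA precursor Rn45s, which took 2.43 to 7.24% of counts against 0.206 to 0.611%. The part that cell mixture or these library differences had in the changes was not tested, and the values of the genes that passed in shKdm6b against control are also given without the libraries numbered 4.

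**Figure D1:**
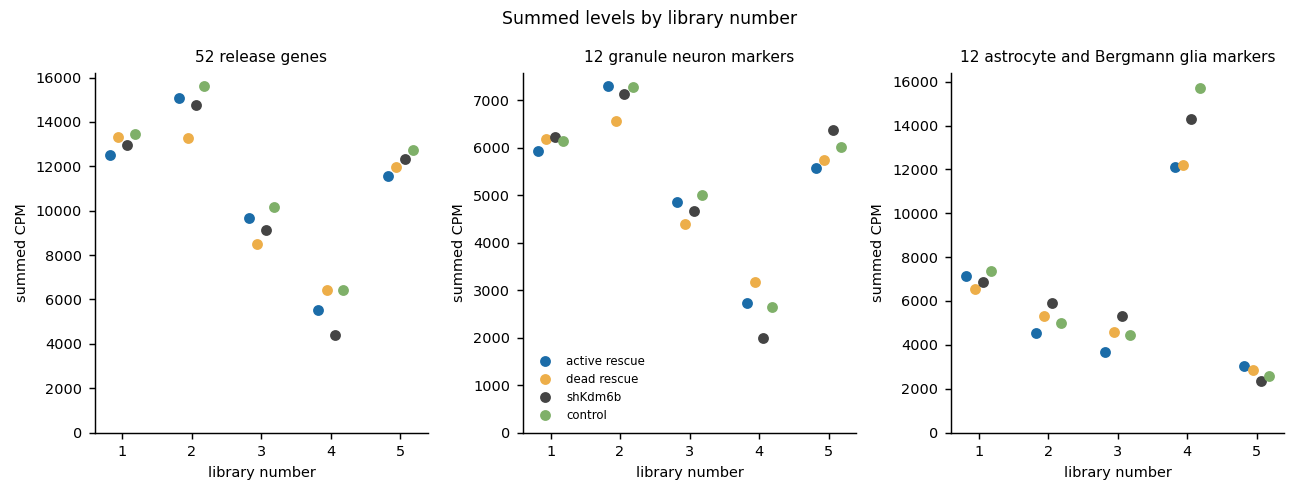
Summed CPM (linear axis) by library number for the 52 release genes, 12 granule neuron markers and 12 astrocyte and Bergmann glia markers, with 1 point per library coloured by group. The points of a number lie close together, and number 4 is lowest for the release genes (4393 to 6444 CPM) and highest for the glial markers (12098 to 15717 CPM).

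The targeted gene was lower in shKdm6b than in control in 5 of 5 same-numbered pairs. Kdm6b was at 99.4, 112, 89.3, 37.9 and 76.4 CPM in shKdm6b libraries 1 to 5, against 141, 171, 139, 81.2 and 187 CPM in control libraries 1 to 5. The paired change was -0.88 ± 0.21 (adjusted p = 0.0231), with -0.84 and an adjusted p of 0.0567 without the libraries numbered 4. Leaving out single libraries kept the call in 5 of 10 cases. In the active rescue Kdm6b was at 266 to 312 CPM in libraries 1 to 3 and 73.2 to 119 CPM in libraries 4 and 5, and in the dead rescue at 192 to 272 and 54.9 to 109 CPM. Reads of the human domain may be counted under the mouse gene, so these values do not give the endogenous level.

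Genes of the release machinery spanned a wide range of levels. Per kilobase of exonic length, the most abundant in control cultures was the SNARE protein gene Snap25, at 197 ± 84.8 CPM per kb (SD, n = 5). The complexins Cplx2 and Cplx1, which clamp SNARE complexes, followed at 143 ± 30.2 and 133 ± 23.9 CPM per kb. The vesicle SNARE Vamp2 stood at 119 ± 17.3, the vesicle GTPase Rab3a at 116 ± 27.7, the vesicle membrane protein Syp at 112 ± 19.5 and Dnm1, the dynamin that pinches off vesicles, at 109 ± 32.0 CPM per kb. These means lie within the spread of their neighbours. Slc17a7 was at 93.9 ± 44.9 CPM per kb. At the low end were Syt6 at 0.207 ± 0.0979 and Syt17 at 0.132 ± 0.136 CPM per kb.

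Release genes moved in both directions after the knockdown: in shKdm6b against control, 4 rose, 7 fell and 41 did not pass. The genes that rose were the calcium sensor genes Syt5, Syt6 and Doc2a and the plasma membrane SNARE gene Stx1a. Those that fell were the calcium sensor genes Syt2 and Syt7, the SNARE gene Snap25, the SNARE recycling factor Napb, the scaffold Erc1, the vesicle GTPase Rab3c and the glutamate transporter Slc17a7. The 11 genes are 21.2% of the 52, where 4.14% of all genes tested passed. The 52 were chosen with earlier results of these data known, so this share does not test release genes as a class. By direction, 1.72% of all genes passed as higher and 2.41% as lower. Without pairing, edgeR passed 0 of the 52 genes and 0.00654% of all genes. At an unadjusted p under 0.05 were 5 of the 52 and 477 of the 15284 genes tested. DESeq2 passed 2 of the 52 without pairing, Stx1a and Syt5, and 14 with it, where 0.419% and 6.18% of all genes passed. The median log2 change of the 52 genes was -0.10, against 0.01 over all genes tested. It was -0.03, against -0.02 over all genes, without shKdm6b library 4 alone, and -0.02 against -0.01 without all libraries numbered 4.

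**Figure D2:**
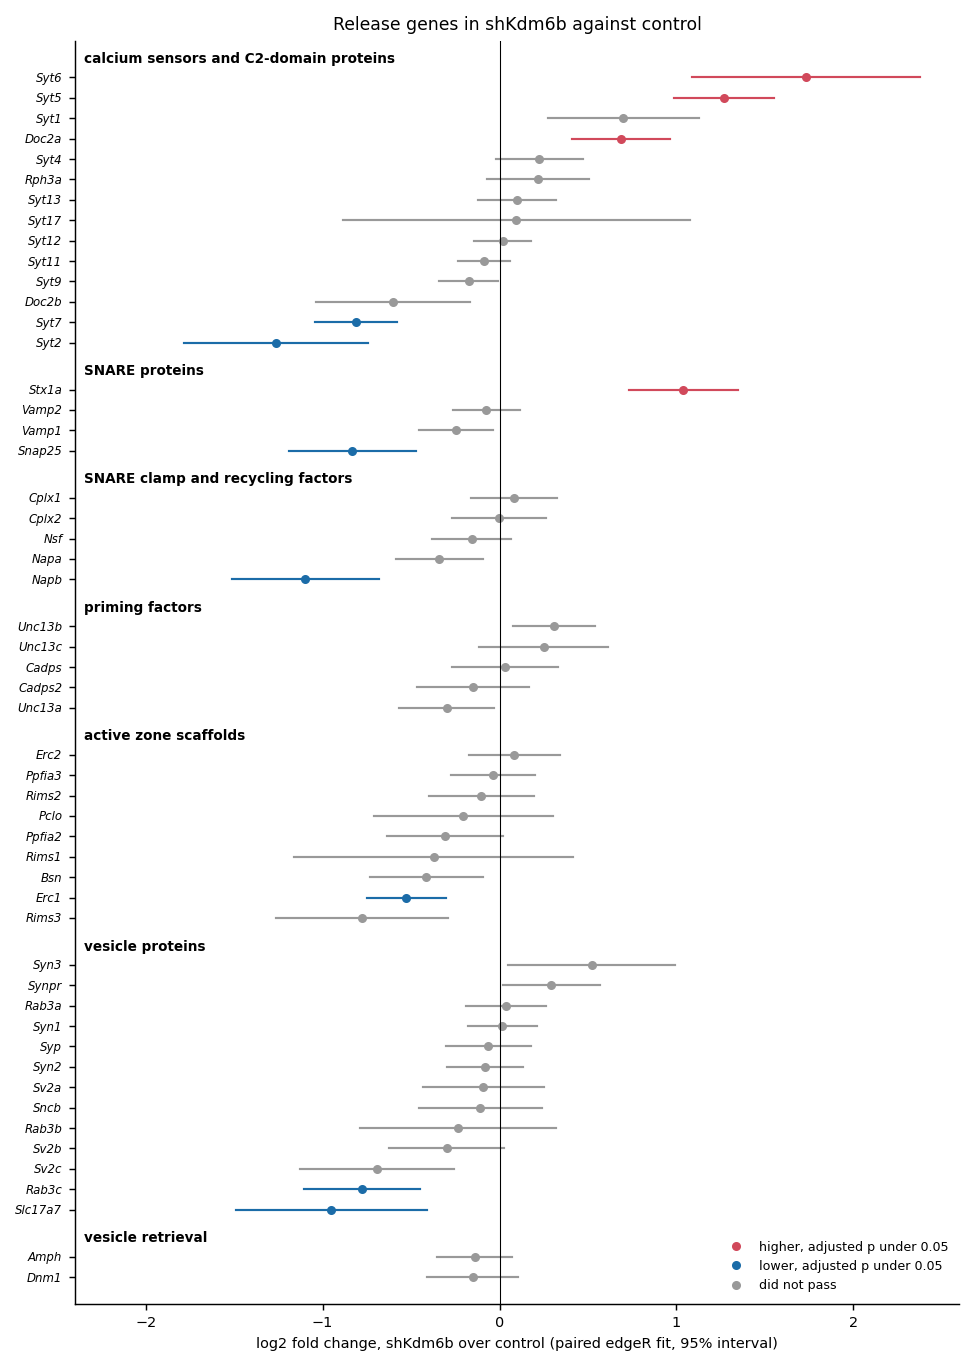
Paired log2 fold change (horizontal axis, shKdm6b over control) of the 52 release genes, grouped by role, with 95% intervals from edgeR. Red genes passed as higher (4), blue as lower (7) and grey did not pass (41), and each colour occurs among both the calcium sensors and the SNARE proteins.

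Promoter sequences of 3 of the changed genes are shown as examples, 1 that rose and 2 that fell. The table of RefSeq promoters used here (GRCm38.p6) held 52 windows for 40 of the 52 genes, and had no entry for Vamp2, Syt7, Doc2a, Syt13, Rims2, Doc2b, Snap25, Syt12, Syt4, Syt17, Syn3 and Syt5. In the 250 bases before the start site, the release gene windows held a median of 13 CpG dinucleotides and ran from 0 to 44, against a median of 6 in all 32851 windows, and 92.3% held 5 or more, against 55.6% of all windows. The windows shown are those of Stx1a, which rose (chr5:135023232-135023481, plus strand, 9 CpG), Slc17a7, which fell (chr7:45163671-45163920, plus strand, 9 CpG), and an internal start of Syt2, which fell (chr1:134709050-134709299, plus strand, 22 CpG). Capitals mark the CpG dinucleotides.
Stx1a: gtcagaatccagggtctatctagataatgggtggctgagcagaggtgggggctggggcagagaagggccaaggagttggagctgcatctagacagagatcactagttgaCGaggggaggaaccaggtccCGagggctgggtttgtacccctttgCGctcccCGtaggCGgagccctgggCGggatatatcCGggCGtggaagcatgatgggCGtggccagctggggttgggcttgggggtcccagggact
Slc17a7: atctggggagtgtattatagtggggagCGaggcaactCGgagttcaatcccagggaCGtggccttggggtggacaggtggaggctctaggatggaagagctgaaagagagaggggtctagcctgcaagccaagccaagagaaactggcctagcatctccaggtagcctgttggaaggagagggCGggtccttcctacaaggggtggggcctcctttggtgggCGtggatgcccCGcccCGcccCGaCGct
Syt2: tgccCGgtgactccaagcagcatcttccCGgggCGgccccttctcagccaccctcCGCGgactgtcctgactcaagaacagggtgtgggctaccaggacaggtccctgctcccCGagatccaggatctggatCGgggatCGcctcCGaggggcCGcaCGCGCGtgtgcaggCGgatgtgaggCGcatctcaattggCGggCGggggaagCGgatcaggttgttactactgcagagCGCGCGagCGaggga
Genes that rose and genes that fell both had such windows, and the counts describe the sequence alone.

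Among the 14 calcium sensors and C2-domain proteins, 3 rose, 2 fell and 9 did not pass. Syt5 (chr7:4539765-4547541, minus strand in GENCODE M21, GRCm38) encodes a calcium-binding synaptotagmin. It was at 34.3, 43.0, 27.5, 37.8 and 29.8 CPM in shKdm6b libraries 1 to 5, against 12.3, 16.1, 11.7, 22.2 and 10.6 CPM in control libraries 1 to 5. Every shKdm6b library was above every control library. The change was 1.27 ± 0.13, or 2.41-fold (adjusted p = 8.15e-05). Syt6 (chr3:103575231-103645569, plus strand), another synaptotagmin gene and one of the least abundant, was at 5.31, 5.05, 1.18, 4.88 and 3.03 CPM in shKdm6b, against 1.52, 1.15, 0.354, 1.89 and 1.11 CPM in control. It was higher in each pair, but the low shKdm6b library 3 lay within the control range. The change was 1.73 ± 0.30, or 3.32-fold (adjusted p = 0.00348). The annotated span of Syt6 overlaps that of Atg4a-ps on the other strand, so reads in the overlap may come from either gene.

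Doc2a (chr7:126847416-126852705, plus strand) encodes a high-affinity calcium sensor. It was at 7.44, 9.03, 7.41, 9.85 and 8.78 CPM in shKdm6b, against 4.87, 5.19, 4.01, 7.74 and 4.96 CPM in control. Only control library 4 reached into the shKdm6b range. The change was 0.69 ± 0.13 (adjusted p = 0.00591). The annotated span of Doc2a overlaps that of Ino80e on the other strand, and whether reads were counted by strand is not given in the sources used here, so reads in the overlap may come from either gene.

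Syt7 (chr19:10389090-10453180, plus strand) encodes a sensor of slower, asynchronous release. It was at 69.3, 103, 69.7, 42.1 and 105 CPM in shKdm6b, against 136, 172, 117, 64.4 and 204 CPM in control. Each shKdm6b library was below its same-numbered control, although the groups overlapped through the low control library 4. The change was -0.81 ± 0.11 (adjusted p = 0.000462). Syt2 (chr1:134646677-134762593, plus strand), a fast calcium sensor of hindbrain synapses, was at 35.3, 40.5, 33.8, 1.47 and 30.9 CPM in shKdm6b, against 64.1, 58.2, 52.9, 11.6 and 111 CPM in control. Outside number 4, every shKdm6b library was below every control library. The change was -1.26 ± 0.25 (adjusted p = 0.00659). It was -1.02 without the libraries numbered 4 and -0.67 in libraries 1 to 3 alone, and both passed. Syt2 overlaps Ppp1r12b on the other strand.

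Syt1, the main sensor of fast release in forebrain neurons, was at 896, 952, 493, 240 and 712 CPM in shKdm6b, against 458, 636, 390, 156 and 350 CPM in control. It was higher in 5 of 5 pairs, with a change of 0.70 ± 0.20 that did not pass (adjusted p = 0.0667). Without the libraries numbered 4 it passed, at 0.69. The other 8 genes of the family did not pass either: their changes ran from -0.60 for Doc2b to 0.22 for Syt4, with the Rab effector Rph3a also at 0.22.

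Of the 4 SNARE proteins, 1 rose and 1 fell, and both act at the plasma membrane. Stx1a (chr5:135023482-135051100, plus strand), the syntaxin of the fusion complex, was at 37.5, 35.0, 31.8, 44.3 and 37.9 CPM in shKdm6b, against 14.1, 18.1, 18.8, 25.2 and 16.1 CPM in control. The groups did not overlap. The change was 1.04 ± 0.15, or 2.06-fold (adjusted p = 0.000637). Snap25 (chr2:136713453-136782428, plus strand), its partner on that membrane, was at 1004, 1308, 835, 139 and 974 CPM in shKdm6b, against 1797, 1947, 1145, 497 and 1292 CPM in control. The fall was seen in each pair, with overlapping groups. The change was -0.83 ± 0.17 (adjusted p = 0.00847), and -0.59 (adjusted p = 0.00114) without the libraries numbered 4. The vesicle SNAREs Vamp1 and Vamp2 changed by -0.25 ± 0.10 and -0.08 ± 0.09 and did not pass (adjusted p = 0.226 and 0.802).

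Among the 5 clamp and recycling factors, 1 fell and 4 did not pass. Napb (chr2:148693985-148732467, minus strand), the neuronal SNAP that recruits NSF to used SNARE complexes, was at 134, 189, 122, 11.96 and 111 CPM in shKdm6b, against 300, 332, 221, 42.0 and 247 CPM in control. Outside number 4, every shKdm6b library was below every control library. The change was -1.10 ± 0.20, which leaves 46.7% of the control level (adjusted p = 0.00372). Its widely expressed relative Napa was at -0.34 ± 0.12 (adjusted p = 0.133), Nsf at -0.16 ± 0.11, Cplx1 at 0.08 ± 0.11 and Cplx2 at -0.01 ± 0.13.

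No priming factor passed. The Munc13 genes Unc13a, Unc13b and Unc13c, which open syntaxin for SNARE assembly, were at -0.30 ± 0.13, 0.31 ± 0.11 and 0.25 ± 0.17, with the smallest adjusted p at 0.154. Their count of 0 of 5 in edgeR goes with 2 genes at an unadjusted p under 0.05 and with 0 in DESeq2 with pairing. Of all 15284 genes tested in edgeR, 2283 had such an unadjusted p.

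Of the 9 active zone scaffolds, 1 fell and 8 did not pass. The log2 changes of 8 of the 9 were negative, with a median of -0.31 (7 of 9 and -0.27 without the libraries numbered 4), against 7315 negative changes among the 15284 genes tested. Erc1 (chr6:119570796-119848167, minus strand), a scaffold of the ELKS family, was at 373, 415, 230, 63.0 and 291 CPM in shKdm6b, against 447, 524, 348, 129 and 400 CPM in control. It was lower in each pair, within overlapping groups. The change was -0.53 ± 0.11 (adjusted p = 0.00784). Rims3, a short form of the RIM scaffolds, was at -0.78 ± 0.23 (adjusted p = 0.0737), and Bsn, the large scaffold bassoon, at -0.41 ± 0.15 (adjusted p = 0.173). The single positive value was that of Erc2, at 0.08 ± 0.12.

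Among the 13 vesicle proteins, 2 fell and 11 did not pass. Rab3c (chr13:110054187-110280996, minus strand), a small GTPase that guides vesicles to the membrane, was at 127, 204, 128, 33.1 and 231 CPM in shKdm6b, against 233, 344, 230, 65.8 and 302 CPM in control. It was lower in each pair. The change was -0.78 ± 0.16 (adjusted p = 0.00784). Rab3a, the most abundant of the family, was at 0.04 ± 0.11 and Rab3b at -0.24 ± 0.26. Slc17a7 (chr7:45163949-45176142, plus strand), the glutamate loader, was at 339, 360, 225, 51.3 and 637 CPM in shKdm6b, against 581, 449, 310, 303 and 888 CPM in control. The largest fold difference was in number 4. The change was -0.95 ± 0.26 (adjusted p = 0.0444). It was -0.54 (adjusted p = 0.00308) without the libraries numbered 4, and -0.62 without control library 4 alone. The call was lost in 6 of 10 cases when single libraries were left out, namely control 1 and each of the 5 shKdm6b libraries. Syp, Syn1 and Syn2, common vesicle markers, were at -0.06 ± 0.11, 0.02 ± 0.09 and -0.08 ± 0.10. Sv2c, a vesicle glycoprotein, was at -0.69 ± 0.21 (adjusted p = 0.0768). The retrieval genes Amph and Dnm1 were at -0.14 ± 0.10 and -0.15 ± 0.12 and did not pass.

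Each of the 11 genes moved the same way in 5 of 5 pairs. The paired fit that chose them used these pairs, so this agreement is no separate support. Of all 52 genes, 9 were higher and 15 lower in 5 of 5 pairs. The same was not counted over all genes tested, so these counts do not set release genes apart. With the libraries numbered 4 left out, 17 of the 52 passed, 7 higher and 10 lower, and the 11 were among them, where 6.5% of all genes passed. Without pairing, 4 of the 52 then passed, where 0.486% of all genes did. The paired changes were then -1.01 for Napb, -0.88 for Syt7, -0.75 for Rab3c, -0.44 for Erc1, 0.75 for Doc2a, 1.07 for Stx1a, 1.38 for Syt5 and 1.75 for Syt6, with those of Syt2, Snap25 and Slc17a7 given above. Libraries 1 to 3 alone also passed 11, where 2.91% of all genes passed, but these did not include Doc2a (0.76, adjusted p = 0.0518) or Erc1 (-0.39, adjusted p = 0.0560). In libraries 4 and 5 alone the 11 changes kept their signs, from -2.25 for Syt2 to 1.44 for Syt6, with adjusted p of 0.341 to 0.751. There 0 of the 15258 genes tested passed. The fit that chose the 11 used these libraries too, so the kept signs are no separate support. When single libraries were left out, 10 to 13 of the 52 genes passed, where 352 of 15414 to 648 of 15362 genes tested passed. Of the 11, 10 passed in all 10 cases, the exception being Slc17a7. The 95% intervals of 27 of the 52 genes lay within a 1.5-fold change in either direction, and those of the other 25 reached beyond it.

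**Figure D3:**
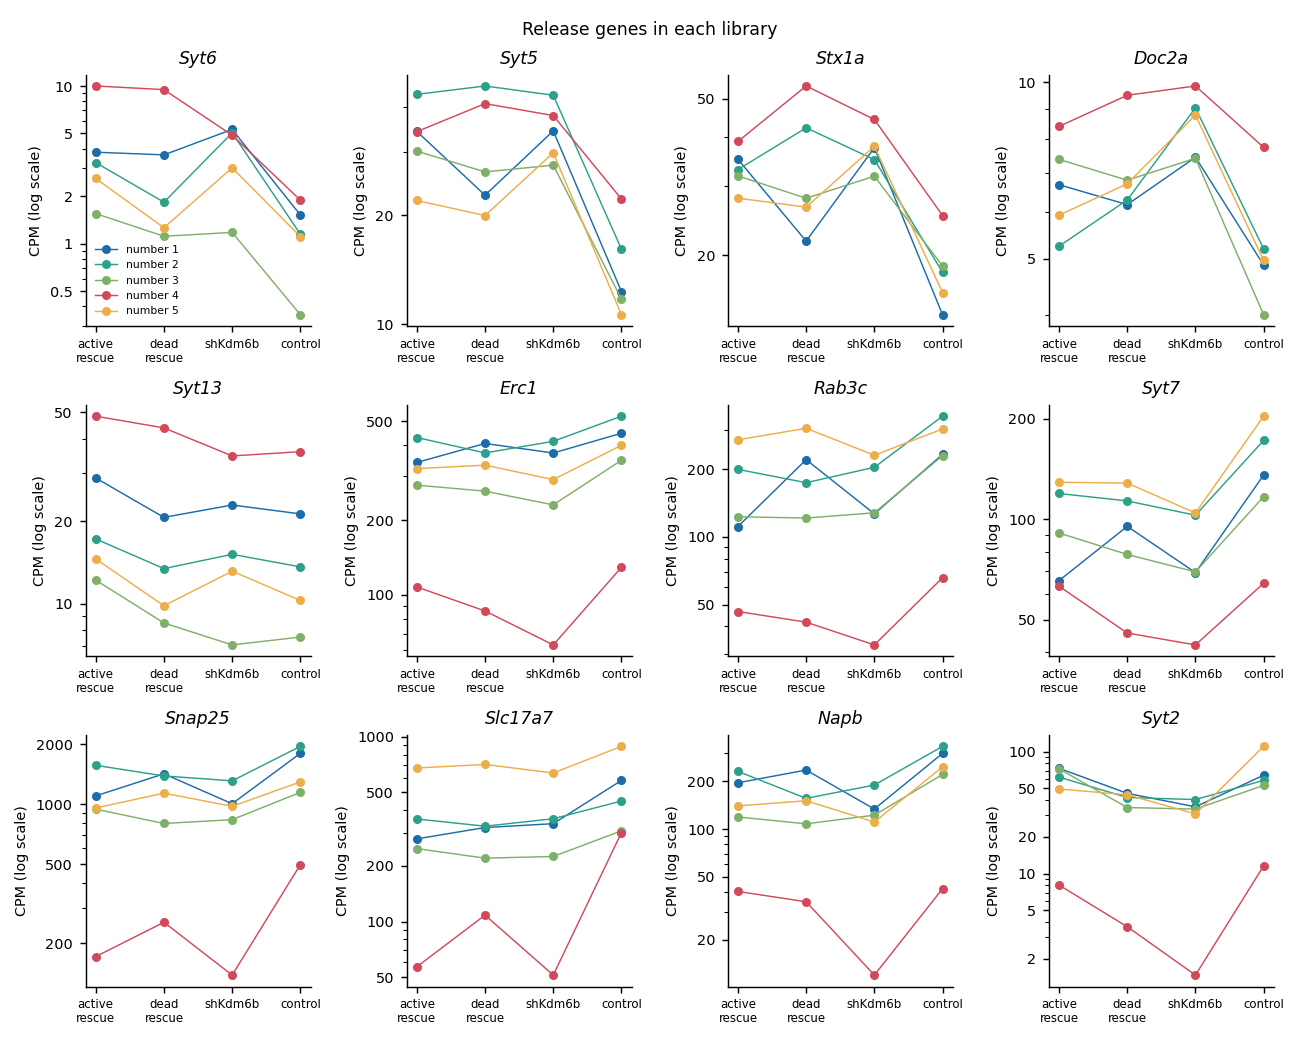
CPM (log axes) of the 12 release genes that passed in any comparison, 1 panel per gene, with 1 point per library and lines that join libraries of the same number across active rescue, dead rescue, shKdm6b and control. For Syt5 and Stx1a every shKdm6b point lies above every control point, and for Syt2 and Napb the red number 4 lies far below the others in every group.

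In edgeR with all 20 libraries, neither rescue changed a release gene past the threshold against shKdm6b. In the active rescue against shKdm6b, edgeR passed 0 of the 52 genes, with 5 at an unadjusted p under 0.05, where 0.00654% of all genes passed, and DESeq2 with pairing passed 1, Syt2, and 0.15% of all genes. In the dead rescue against shKdm6b, edgeR passed 0 of the 52, with 3 at an unadjusted p under 0.05, where 0% of all genes passed, and DESeq2 passed 0. The active rescue against the dead rescue gave 0 in edgeR, with 2 at an unadjusted p under 0.05, 0.00654% of all genes, and 0 in DESeq2 with pairing, with 0.0196% of all genes. Over all 15284 genes tested, 577, 214 and 415 had an unadjusted p under 0.05 in these 3 comparisons in the paired edgeR fit. Without pairing, edgeR passed 0 of the 52 genes and 0% of all genes in each of these 3 comparisons. At an unadjusted p under 0.05 were then 0 of the 52, and 50, 25 and 37 of all genes. Without the libraries numbered 4, the paired fit passed 0 of the 52 in each, and 0.00657%, 0% and 0% of all genes. At an unadjusted p under 0.05 were 9, 10 and 8 of the 52, in the order above. The matching counts over all genes were not made.

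The largest change in the active rescue against shKdm6b was that of Syt2, the fast calcium sensor. It was at 73.1, 61.9, 72.3, 8.06 and 49.3 CPM in active rescue libraries 1 to 5, and at 45.5, 42.1, 34.8, 3.67 and 44.3 CPM in dead rescue libraries. In shKdm6b, as above, it was at 1.47 to 40.5 CPM, and in control at 11.6 to 111 CPM. The active rescue exceeded both the dead rescue and shKdm6b in 5 of 5 pairs. Against shKdm6b the change was 1.05 ± 0.24, which did not pass in edgeR (adjusted p = 0.454), and passed in DESeq2 with pairing at 1.09 (adjusted p = 0.0223). Against the dead rescue it was 0.71 ± 0.24, which did not pass (adjusted p = 1.00). In libraries 1 to 3 alone Syt2 passed in both, at 0.91 (adjusted p = 0.00504) and 0.75 (adjusted p = 0.0257), as the single release gene in each, where 0.111% and 0.0589% of all genes passed. Against control, Syt2 was at -0.21 ± 0.24 in the active rescue and -0.93 ± 0.24 in the dead rescue, and neither passed.

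Syt13 (chr2:92915098-92956058, plus strand), a synaptotagmin that does not bind calcium, was at 28.8, 17.2, 12.2, 48.4 and 14.6 CPM in the active rescue and 20.7, 13.4, 8.501, 43.9 and 9.82 CPM in the dead rescue. It was at 22.9, 15.1, 7.07, 34.6 and 13.1 CPM in shKdm6b and 21.3, 13.6, 7.55, 35.9 and 10.3 CPM in control. The active rescue was highest at every number, and the groups overlapped throughout. It changed by 0.40 ± 0.10 against the dead rescue and 0.38 ± 0.10 against shKdm6b, neither of which passed (adjusted p = 0.993 and 0.610), and by 0.48 ± 0.10 against control, which passed (adjusted p = 0.0240).

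Napb was at 196, 231, 119, 40.3 and 140 CPM in the active rescue and 236, 156, 108, 34.7 and 151 CPM in the dead rescue, against 11.96 to 189 CPM in shKdm6b. The changes against shKdm6b were 0.53 ± 0.20 and 0.42 ± 0.20, and neither passed (adjusted p = 1.00 for both). Without the libraries numbered 4 they were 0.28 and 0.22. Syt7 gave 0.30 ± 0.11 and 0.24 ± 0.11, and Doc2a -0.34 ± 0.13 and -0.27 ± 0.13, in the active and dead rescue against shKdm6b, with adjusted p of 1.00 for each. These 3 genes had an unadjusted p under 0.05 in both rescues, which share the shKdm6b libraries they are set against. The 95% interval lay within a 1.5-fold change for 40 of the 52 genes in the active rescue against shKdm6b, for 39 in the dead rescue against shKdm6b and for 40 in the active against the dead rescue. For Stx1a in the active rescue against shKdm6b the interval ran from -0.46 to 0.14, and for Snap25 in the dead rescue against shKdm6b from -0.04 to 0.66.

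Against control, both rescues held the rise of Syt5 and Stx1a and the fall of Syt7. In the active rescue 4 release genes rose (Syt5, Syt6, Stx1a and Syt13) and 2 fell (Syt7 and Rab3c), where 1.09% of all genes passed as higher, 0.87% as lower and 1.96% in either direction. In the dead rescue 2 rose (Syt5 and Stx1a) and 1 fell (Syt7), where 0.576% of all genes passed as higher, 0.608% as lower and 1.18% in either direction. Without pairing edgeR passed 0 of the 52 genes and 0% of all genes in both, with 3 of the 52 at an unadjusted p under 0.05 in each. Of all 15284 genes tested, 387 in the active rescue and 276 in the dead rescue had such an unadjusted p. DESeq2 without pairing passed 1 in the active rescue, Syt5, and 0 in the dead rescue, with 3 of the 52 at an unadjusted p under 0.05 in each, where 0.19% and 0.111% of all genes passed. With pairing it passed 8 and 9, where 4.08% and 2.98% of all genes passed.

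Syt5 was at 34.1, 43.2, 30.1, 34.1 and 21.99 CPM in the active rescue and 22.7, 45.6, 26.4, 40.8 and 19.98 CPM in the dead rescue, against 10.6 to 22.2 CPM in control. Only control library 4 reached the lowest rescue libraries. The changes were 1.18 ± 0.13 in the active rescue and 1.07 ± 0.13 in the dead rescue (adjusted p = 0.000281 and 0.000937). Stx1a was at 35.1, 33.0, 31.8, 38.9 and 27.9 CPM in the active rescue and 21.7, 42.2, 27.9, 53.9 and 26.5 CPM in the dead rescue, against 14.1 to 25.2 CPM in control. The active rescue did not overlap control, and the dead rescue did. The changes were 0.88 ± 0.15 and 0.87 ± 0.15 (adjusted p = 0.00438 and 0.00773).

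Syt7 was at 65.6, 120, 91.1, 63.1 and 129 CPM in the active rescue and 95.4, 114, 78.6, 45.7 and 129 CPM in the dead rescue, against 64.4 to 204 CPM in control. The changes were -0.52 ± 0.11 and -0.57 ± 0.11 (adjusted p = 0.0201 and 0.0162), lower in 5 of 5 pairs each. Syt6 was at 3.804, 3.27, 1.55, 10.01 and 2.59 CPM in the active rescue and 3.66, 1.83, 1.11, 9.49 and 1.26 CPM in the dead rescue, against 0.354 to 1.89 CPM in control. Library 4 was the highest of each rescue. The change was 1.71 ± 0.30 in the active rescue, which passed, and 1.30 ± 0.31 in the dead rescue, which did not (adjusted p = 0.00746 and 0.0526). Whether the active and dead rescue differ for Syt6 was tested directly and did not pass (0.41 ± 0.28, adjusted p = 1.00).

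Rab3c was at 111, 199, 123, 46.5 and 270 CPM in the active rescue and 220, 174, 121, 41.8 and 304 CPM in the dead rescue, against 65.8 to 344 CPM in control. The changes were -0.68 ± 0.16, which passed, and -0.51 ± 0.16, which did not (adjusted p = 0.0323 and 0.152). Snap25 was at 1099, 1564, 943, 172 and 956 CPM in the active rescue and 1418, 1384, 799, 256 and 1135 CPM in the dead rescue, against 497 to 1947 CPM in control. It was lower than control in 5 of 5 pairs in both, at -0.67 ± 0.17 and -0.52 ± 0.17, and neither passed (adjusted p = 0.0511 and 0.175). Without the libraries numbered 4, 13 release genes passed in the active rescue and 10 in the dead rescue, where 4.6% and 2.48% of all genes passed, and Snap25, Napb, Erc1 and Slc17a7 were then lower in both. Libraries 1 to 3 alone passed 7 in the active rescue and 3 in the dead rescue, where 2.97% and 0.936% of all genes passed. When single libraries were left out, Syt5 and Stx1a kept their calls in both rescues and Syt6 in the active rescue. Syt7 kept its call in 4 of 10 cases in the active and 5 of 10 in the dead rescue, and Rab3c and Syt13 in 3 of 10 each in the active rescue.

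**Figure D4:**
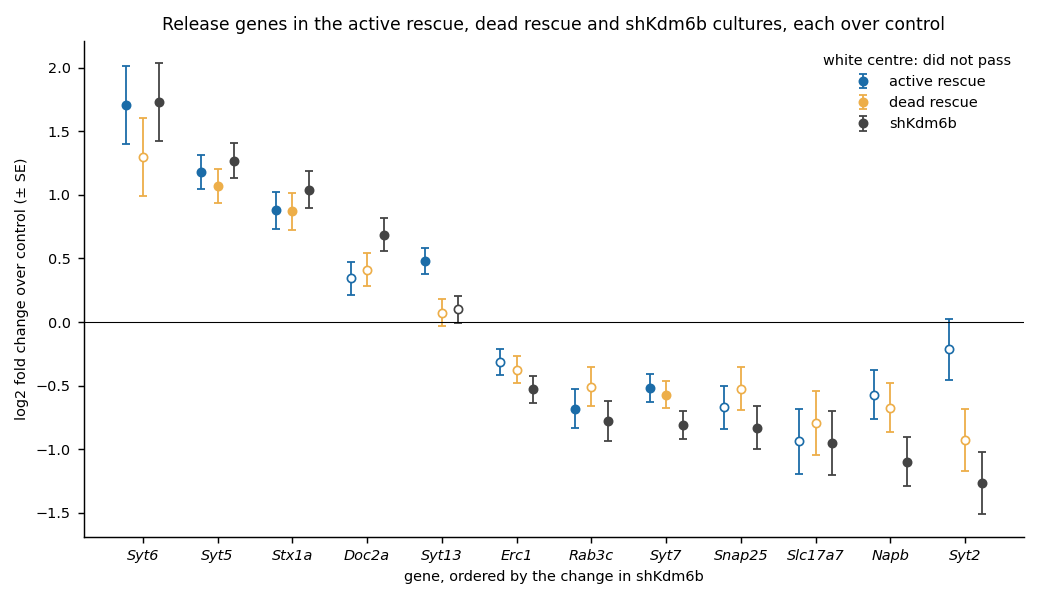
Paired log2 fold change over control (vertical axis, error bars are SE) of the 12 release genes that passed in any comparison, in active rescue, dead rescue and shKdm6b, which share the control libraries. Filled points passed and white centres did not; Syt5 and Stx1a lie near 1 in all 3 groups, and Syt2 lies at -0.21 in active rescue, -0.93 in dead rescue and -1.26 in shKdm6b.

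Further genes of vesicle fusion, filling, retrieval and presynaptic calcium entry were counted beside the 52. Of 111 such genes in the table, 106 were tested, and in shKdm6b against control 1 rose, 12 fell and 93 did not pass, or 12.3% against the 4.14% of all genes. These genes were also chosen with earlier results of these data known, so their shares do not test release genes as a class. Rab3d, a vesicle GTPase related to Rab3c, was at 30.3 ± 8.10 CPM in shKdm6b and 45.3 ± 9.84 CPM in control (SD, n = 5 each), a change of -0.60 ± 0.08. Snap29, a SNARE protein related to Snap25, was at 19.4 ± 2.50 CPM in shKdm6b and 34.7 ± 5.54 CPM in control, a change of -0.82 ± 0.12. Both passed as lower in the rescues too. Nrxn3, a presynaptic adhesion protein, fell by 0.66 ± 0.10 on the log2 scale, and Gad1, a GABA-synthesising enzyme, by 0.60 ± 0.11. The scaffold Ppfia4 fell by 0.81 ± 0.15 and the SNARE regulator Prrt2 by 0.69 ± 0.14. Syndig1, which was listed and counted with the retrieval genes but is not an established one, fell by 0.65 ± 0.13. The gene that rose was Syt3, a synaptotagmin, at 0.62 ± 0.14 (adjusted p = 0.0205), named after its value was seen. In the active rescue against control 0 rose and 7 fell, or 6.60% against 1.96% of all genes, and in the dead rescue 0 rose and 3 fell, or 2.83% against 1.18%. In the 3 comparisons without control 0 passed in edgeR, with 3, 4 and 1 at an unadjusted p under 0.05 in active rescue against shKdm6b, dead rescue against shKdm6b and active against dead rescue. Of all 15284 genes tested, 577, 214 and 415 had such an unadjusted p.

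Markers of cell types were counted in the same fit. Of 12 granule neuron markers, 2 rose in shKdm6b against control (Tubb3 and Pax6) and 3 fell (Etv1, Cbln3 and Slc17a7, which is also 1 of the 52). These are 41.7% of that list, where 4.14% of all genes tested and 21.2% of the 52 release genes passed. The marker lists were also chosen with earlier results of these data known. Of 9 tested markers of GABAergic interneurons and Purkinje cells, Pax2 rose and Gad1 and Slc32a1 fell (33.3%), and the Purkinje cell gene Pcp2 was at 0 in all 20 libraries. Tmem119 fell among 12 microglial markers (8.33%) and Cspg4 among 11 of the oligodendrocyte lineage (9.09%). No marker passed in the lists of astrocytes and Bergmann glia, meningeal fibroblasts and endothelial cells, or unipolar brush and nuclear neurons. The log2 changes of all 12 microglial markers were negative in shKdm6b against control, with a median of -0.39, and 2 had an unadjusted p under 0.05. Over all 15284 genes tested, 7315 changes were negative and 2283 had such a p. Against control, 12 of the markers were negative in the active rescue and 11 in the dead rescue, where 7068 and 7509 of all genes were. The summed microglial markers were at 285 to 1022 CPM in the active rescue, 357 to 962 CPM in the dead rescue and 369 to 884 CPM in shKdm6b, against 323 to 1886 CPM in control. The value of 1886 CPM was that of control library 4, and libraries of other numbers reached at most 1134 CPM. The summed granule neuron markers were at 1998 to 7117 CPM in shKdm6b and 2644 to 7278 CPM in control, and those of astrocytes and Bergmann glia at 2367 to 14311 and 2578 to 15717 CPM. The part of these markers in the changes of the release genes was not tested.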

How the data were processed

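RNA of 20 libraries was sequenced, and the deposited table holds estimated counts per gene, not scaled, from salmon per the table's own name. The submitters' processing notes name mm10. Not given in the sources used here are the salmon version, annotation, trimming and strandedness. Columns were matched to samples by name, 0 were left over, no columns were identical, and counts of libraries within a group gave chi-square values of 27.9 to 395 per degree of freedom. Totals ran from 14200745 to 21179300.

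Counts were rounded. filterByExpr of edgeR 4.0.16 (R 4.3.3) kept 15284 of 24411 genes. TMM scaling and the quasi-likelihood test (robust, two-sided, all 20 libraries in 1 fit) gave 6 comparisons with Benjamini-Hochberg adjustment over all genes tested and a threshold of 0.05. SEs are the absolute log2 fold change over the square root of F, intervals are 95%, and CPM uses TMM-scaled library sizes. Scripts were tested on simulated data. Exonic lengths and coordinates are from GENCODE M21 (GRCm38).

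The design had no replicate block. The numbers 1 to 5 were checked as a pairing before calls were compared. Deviations from the group mean correlated across genes in each of the 30 same-numbered pairs (Pearson r 0.361 to 0.881, limit 0.1). In 120 other pairs r ran from -0.581 to 0.572 with a median of -0.20, so the ranges overlapped. Where same-numbered libraries share deviations, taking them from the group mean pushes r of the other pairs below 0. No label explains the numbers, so the pairing comes from this check. The paired fit lowered the biological coefficient of variation to 0.179, against 0.392 without pairing, with 12 and 16 residual degrees of freedom.

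Alternatives were DESeq2 1.42.0, RLE scaling, no filter, each library left out, numbers 4 left out, and numbers 1 to 3 or 4 and 5 alone. Genes that passed in any comparison are given in every library, up to 14 genes in order of adjusted p, and of the further release genes the 8 with the smallest adjusted p are named, except 1 that is not reported here. The 52 genes, the further release genes and the marker lists were chosen with earlier results of these data known.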

Additional observations from a re-analysis of the deposited data

Results flagged for a closer look

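Of 56 groups of 5 libraries tested for a library far from the others, 4 held one, and chance gives one in about 1 in 20 groups. All 4 of these libraries carry the number 4, which stood apart in every group. The values are given with no explanation, since none was tested.

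Syt6 was at 10.01 CPM in active rescue library 4, against 1.55 to 3.804 CPM in the other active rescue libraries. Doc2a was at 9.492 CPM in dead rescue library 4, against 6.18 to 6.80 CPM in the others. Syt2 was at 3.67 CPM in dead rescue library 4, against 34.8 to 45.5 CPM, and at 1.472 CPM in shKdm6b library 4, against 30.9 to 40.5 CPM.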

How the results depend on the processing

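With the replicate block, the count of release genes that passed was 11 in shKdm6b against control, 6 in active rescue against control and 3 in dead rescue against control, against 0 without it in each, and that of the further release genes 13, 7 and 3, against 0. DESeq2 passed 2, 1 and 0 in the same order, and with the block 14, 8 and 9, plus 1 in active rescue against shKdm6b (Syt2). Without the libraries numbered 4, edgeR passed 4 in shKdm6b against control (Doc2a, Stx1a, Syt5 and Syt2), where 0.486% of all genes passed, and with the block 17, 13 and 10, where 6.5%, 4.6% and 2.48% of all genes passed, against 4.14%, 1.96% and 1.18% with all libraries. With the block, libraries 4 and 5 alone passed 0 in each, where 0% of all genes passed. Libraries 1 to 3 alone with the block passed 1 (Syt2) in active rescue against shKdm6b and 1 (Syt2) in active against dead rescue. Of all genes, 0.111% and 0.0589% passed there. RLE scaling or no filter kept these counts within 1.5 times. With single libraries left out, the paired counts against control ranged from 10 to 13, 3 to 6 and 2 to 5, and the unpaired count in shKdm6b against control from 0 to 1. Over all genes tested, the paired counts then ranged from 352 to 648, 128 to 384 and 65 to 179, and the unpaired count from 0 to 9. The 12 genes that passed in a comparison, and Kdm6b, kept their sign in that comparison under each alternative run. Each alternative reused libraries of these same data, so the kept signs are no separate support. Kdm6b in shKdm6b against control was at -0.79 without the block, which did not pass, and passed at -0.88 with it and at -0.90 in DESeq2 with the block. The cause of these differences was not tested.

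The pairing rests on the data, so the paired calls depend on reading the numbers as shared sources. Depth limits the genes with the lowest levels, which in control were Syt17, Syt6 and Rab3b at means of 0.685, 1.204 and 1.58 CPM.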
